A study of Drosophila melanogaster with 18 samples.

Results

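The genes described here encode the proteins of the mitochondrial ribosome in Drosophila melanogaster. They were taken by name, as every gene in the count files whose FlyBase symbol starts with mRpL (large subunit) or mRpS (small subunit). This gave 73 genes of 17575, of which 47 belong to the large and 26 to the small subunit. Total RNA of adult testes, depleted of ribosomal RNA, was sequenced from modulo mutant males (genotype modL8/mod07570) and from control males (mod07570/+), with 3 replicates of each genotype and males aged 1 to 3 days. Both genotypes carry mod07570, and the control keeps a wild-type copy of modulo, so the control is a heterozygote. By these genotypes, the mutant differs from it by the chromosome that carries modL8. Whatever else lies on that chromosome cannot be told apart from the loss of modulo. Whether the other chromosomes were matched is not stated for these samples, so differences on them cannot be told apart from it either. Map205, a microtubule-associated protein gene next to mod on chromosome 3R, was lower as well, with 1.03, 1.34 and 0.285 CPM (defined below) in the mutant, against 95.2, 78.4 and 78.9 CPM in control (log2 fold change -6.55). The modulo product belongs to the nucleolus and is related to nucleolin of vertebrates. The question for these genes was whether the mutant testes contained more or less of their RNA than control testes, and whether both subunits did so alike.

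The mitochondrial ribosome translates the few mRNAs of the mitochondrial genome, which encode core subunits of the respiratory chain and of ATP synthase. Its ribosomal RNAs are transcribed inside the organelle, while all of its proteins are encoded in the nucleus, made in the cytosol and imported. Part of these proteins have counterparts in bacterial ribosomes, and the rest were added in the mitochondrial lineage. In the fly testis, the mitochondria of each spermatid fuse into the nebenkern, which later elongates along the growing tail.

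Total counts per replicate ranged from 90898270 to 107435749 in the mutant and from 87119206 to 94915990 in control. Levels are given as CPM, the counts of a gene per 1000000 counts of its sample, scaled between samples by the TMM method of edgeR. The modulo gene (mod, FBgn0002780) stood at 2.06, 1.91 and 1.28 CPM in the mutant replicates, against 21.7, 20.7 and 22.2 CPM in control (log2 fold change -3.62, edgeR adjusted p = 4.13e-05), which is the direction the labels give. Spermatocyte and spermatid markers were detected throughout, as a testis sample should have them. Their sums were 1465 to 2229 CPM over 13 spermatocyte genes in the mutant, against 1744 to 2043 CPM in control, and 9719 to 10175 CPM over 17 spermatid genes in the mutant, against 9169 to 9909 CPM in control. The 7 somatic hub and cyst markers summed to 136 to 139 CPM in the mutant and 164 to 165 CPM in control, with tj higher and Fas3 and hh lower. Sums over 6 early germline markers (136 to 199 CPM in the mutant, 140 to 167 CPM in control), 10 muscle markers (907 to 1355 CPM, against 1134 to 1389 CPM) and 14 accessory gland markers (111 to 269 CPM, against 44.3 to 410.9 CPM) overlapped between the genotypes. Single markers moved where the sums did not: 4 of 17 spermatid markers changed (2 higher, 2 lower), 3 of 13 spermatocyte markers did (mia and achi higher, topi lower), and Acp33A of the accessory gland was higher, with 2.74, 1.01 and 3.23 CPM in the mutant, against 0.0211, 0 and 0.0444 CPM in control. For scale, 32.3% of all genes tested changed in the main analysis, 14.5% being higher and 17.8% lower. The early germline list had a median log2 fold change of 0.42. Its aub, a piRNA pathway gene, was higher at 0.71, and vas, bam and zpg had 0.43, 0.47 and 0.41. The other markers of the list went the other way, bgcn, the most abundant, with -0.12 and ovo with -0.16. In the main analysis 1 of these 6 markers was higher, where 14.5% of all genes were. With the replicate number as a block (described below) 4 of the 6 were higher, where 22.2% of all genes were. No marker of these lists was at 0 in all samples. The part of cell composition in the results below was not tested, and in bulk testis RNA a change in the number of cells cannot be told apart from a change in RNA per cell.

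RNA of many mitochondrial ribosomal protein genes was higher in modulo mutant testes, and in the main analysis it was lower for none of them. Of the 72 genes with enough counts to test, 38 (52.8%) were higher at an adjusted p under 0.05 and 0 were lower, in the quasi-likelihood test of edgeR with p-values adjusted by Benjamini-Hochberg over all 14059 genes tested. Among all genes tested, 32.3% changed, 14.5% being higher and 17.8% lower. The median log2 fold change of the family was 0.39, against 0.02 over all genes and 0.42 over the 6 early germline markers. The part of early germ cells in the result was not tested. In all, 70 of the 72 genes had a value above 0, against 52.1% of all genes, and 67 did with the gene length offset described below, which turned mRpL28, mRpL51 and mRpS9 below 0. The changes were small: the highest was 1.93-fold and 18 genes exceeded 1.5-fold. The count of 0 lower genes also held at an unadjusted p under 0.05, where 52 genes were higher (21.4% of all genes), and in DESeq2, where 41 were higher (17.6% of all genes). It did not hold with the gene length offset, where 1 gene, mRpL24, was lower. In fits that left out 1 replicate, 23 to 56 genes were higher and 0 lower. In 49 of the 72 genes every mutant replicate lay above every control replicate, a pattern found in 23.2% of all genes, and the reverse pattern occurred in 0 of the 72, against 24.1% of all genes.

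**Figure D1:**
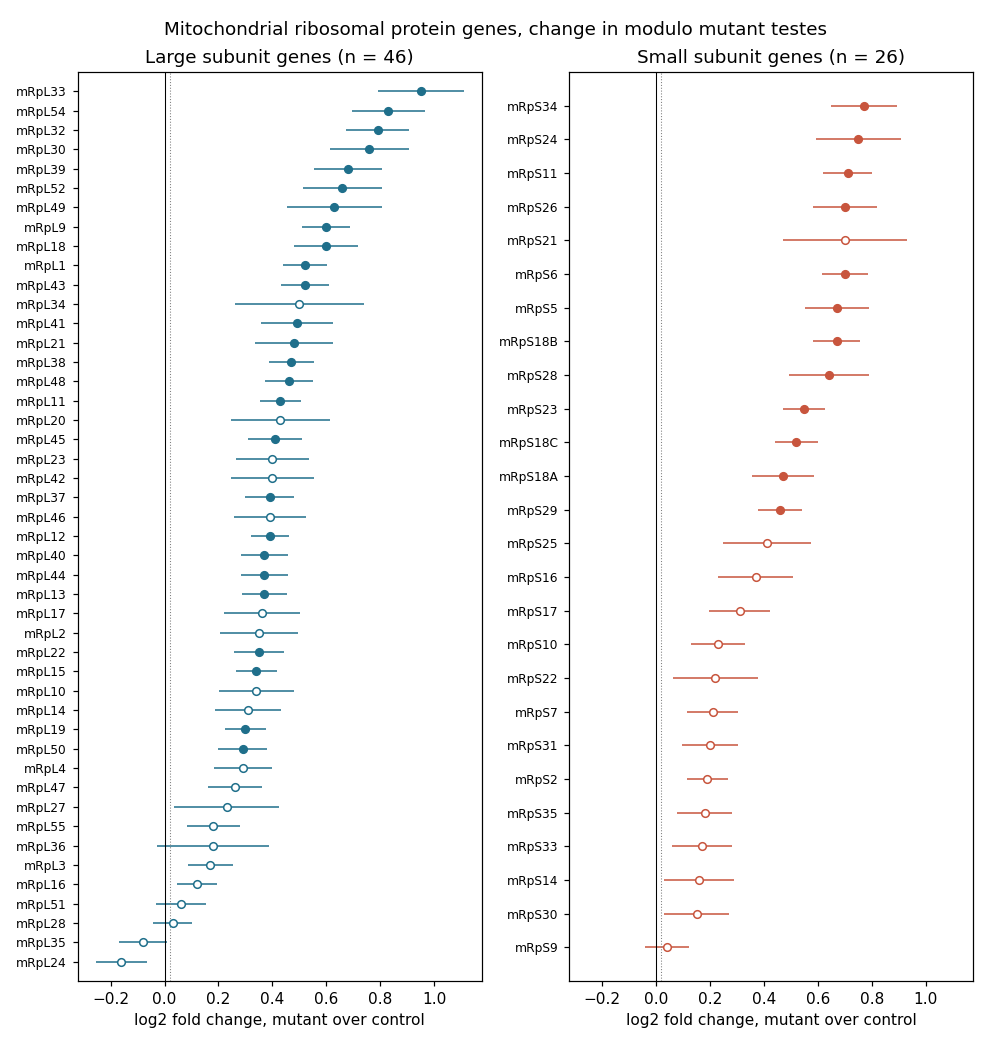
Log2 fold change, mutant over control, of the 46 large subunit genes (left) and 26 small subunit genes (right) that were tested. Bars are standard errors, filled points passed an adjusted p of 0.05, and the dotted line marks the median of all genes tested (0.02). Values run between -0.16 for mRpL24 and 0.95 for mRpL33, and 38 points are filled, all right of 0.

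The labels do not say that replicate numbers pair samples across the genotypes. They were taken as pairs because same-numbered samples deviated together in these data, least so for number 3 (r = 0.246). A fit with the replicate number as a block called 55 of the 72 genes higher and 0 lower, where 22.2% of all genes were higher. All 38 genes stayed among the 55, and those gained were mRpL2, mRpL4, mRpL10, mRpL14, mRpL17, mRpL20, mRpL23, mRpL34, mRpL42, mRpL46, mRpL47, mRpS7, mRpS10, mRpS16, mRpS17, mRpS21 and mRpS25. Leaving out 1 replicate at a time moved the count between 23 (without control replicate 3) and 56 (without mutant replicate 1), and it was 24 without mutant replicate 2 or without control replicate 1. The number of all genes that were higher moved as well, between 919 and 2791 in these fits, against 2044 (14.5%) in the main analysis. In every one of these 6 fits 22 of the 38 genes were called.

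The rise was not equal in the 3 mutant replicates. Each gene's level was divided by its own mean in control, and the median of this relative level over the 72 genes was 1.19, 1.34 and 1.43 in mutant replicates 1, 2 and 3, against 0.934, 1.04 and 1.02 in control replicates 1, 2 and 3. Replicate 1 was thus the lowest of its genotype in both cases. It gave the lowest mutant value in 58 of the 72 genes and the lowest control value in 61. Between same-numbered replicates, the median log2 ratio of mutant to control was 0.35, 0.38 and 0.47, and 67 genes lay above 0 in all 3 pairs. The share of all counts that fell on these genes was 0.1339, 0.1554 and 0.1584% in the mutant, against 0.1141, 0.1214 and 0.1251% in control. 2 abundant classes of other RNA moved with the same samples: 7SL RNA took 2.701, 4.476 and 5.906% of counts in mutant replicates 1, 2 and 3, against 2.277, 3.565 and 3.167% in control, and genes of the mitochondrial genome took 1.371, 1.718 and 2.723% in the mutant, against 0.906, 1.308 and 1.154% in control. With ribosomal RNA and mitochondrial genome genes left out before scaling, the same 38 genes were called, but 7SL RNA stayed in. TMM trims genes with extreme values, so leaving out a few genes could change little. The part of these RNAs in the result was not tested.

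**Figure D2:**
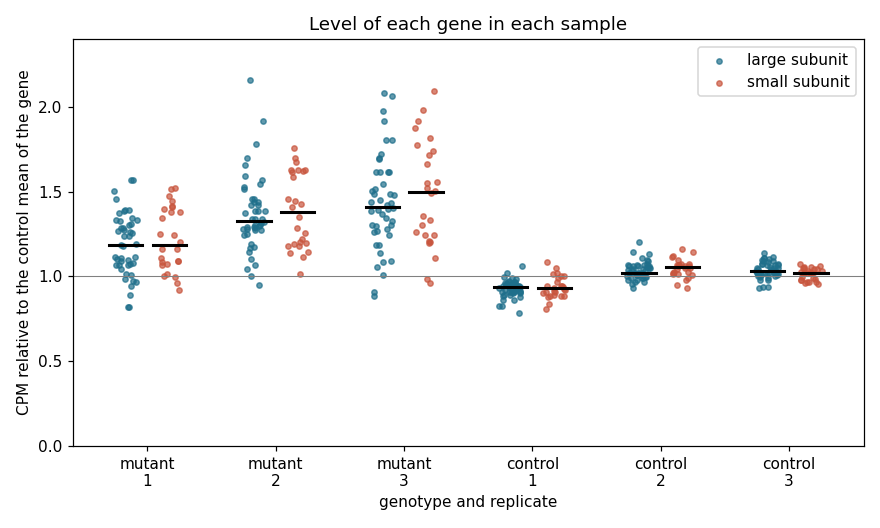
Level of each of the 72 genes in each sample, as CPM divided by the mean CPM of that gene in control (vertical axis, no unit), for the large (blue) and small (red) subunit. Black bars are medians, and over both subunits these are 1.19, 1.34 and 1.43 in the mutant replicates, against 0.934, 1.04 and 1.02 in control.

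In the large subunit, the largest change was that of mRpL33 (FBgn0040907, chromosome X from 4321764 to 4322231, minus strand), a short protein with a bacterial counterpart. It had 4.44, 6.12 and 5.9 CPM in the mutant replicates, against 2.51, 2.77 and 3.23 CPM in control, a log2 fold change of 0.95 (SE 0.159, adjusted p = 0.00453). The samples of the 2 genotypes did not overlap. mRpL54 (FBgn0034579, chromosome 2R from 21060789 to 21061587), a protein with no bacterial counterpart, followed with 11.5, 13.7 and 15.8 CPM in the mutant, against 6.94, 8.13 and 7.93 CPM in control (log2 fold change 0.83, SE 0.135, adjusted p = 0.00401). mRpL32 (chromosome 3R from 31252872 to 31253686) had 16.7, 20.4 and 18.3 CPM in the mutant, against 9.66, 10.4 and 11.9 CPM in control (log2 fold change 0.79). For mRpL30 (chromosome X from 4647871 to 4648646) the mutant replicates had 27.0, 32.9 and 38.3 CPM, against 17.3, 21.3 and 19.7 CPM in control (log2 fold change 0.76). The mitochondria-specific mRpL39 (chromosome 3L from 14997981 to 14999666) reached 17.5, 21.5 and 23.4 CPM in the mutant, against 12, 13.6 and 13.3 CPM in control (log2 fold change 0.68). In all 5 genes the lowest mutant replicate was number 1, and it still lay above the highest control replicate. All 5 kept their call in each of the 19 alternative fits. Adjusted p-values here and below are those of edgeR unless another tool is named.

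In the small subunit, 5 genes belonged to the 10 with the largest called rise of the family. mRpS34 (FBgn0285951, chromosome 3L from 16348074 to 16348782), a protein without a bacterial counterpart, had 23.6, 28.8 and 31.4 CPM in the mutant, against 15.1, 17.3 and 16.7 CPM in control (log2 fold change 0.77, SE 0.123, adjusted p = 0.00376). mRpS24 had 15.2, 18.7 and 21.8 CPM in the mutant, against 9.73, 12.6 and 10.8 CPM in control (log2 fold change 0.75). Its mutant samples differed among themselves more than those of mRpS34 did in proportion, and its adjusted p was 0.0115, or 0.0533 without control replicate 3. mRpS11, the counterpart of a bacterial protein on the platform of the small subunit, had 20.7, 22.8 and 23.3 CPM in the mutant, against 12.6, 14.3 and 13.9 CPM in control (log2 fold change 0.71, adjusted p = 0.0014). mRpS6 was the member with the lowest adjusted p, 0.00116, with 21.1, 22.5 and 24.2 CPM in the mutant, against 14.0, 14.3 and 13.5 CPM in control (log2 fold change 0.70). mRpS26 had 22.7, 25.5 and 30.1 CPM in the mutant, against 15.5, 16.9 and 15.8 CPM in control (log2 fold change 0.70). None of the 5 overlapped between genotypes, and all but mRpS24 passed in each of the 19 alternatives.

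Of the large subunit proteins at the catalytic core or in the tunnel, mRpL22 passed, while mRpL2 and mRpL4 passed only in some alternatives and mRpL3 and mRpL16 in 0 of the 19. mRpL2, mRpL3 and mRpL16 lie at or near the peptidyl transferase centre, and mRpL4 lines the tunnel through which the new protein leaves. mRpL3 had 10.5, 10.9 and 10.9 CPM in the mutant, against 8.92, 9.54 and 10.2 CPM in control (log2 fold change 0.17, adjusted p = 0.16), and mRpL16 had 25.6, 25.7 and 24.7 CPM, against 22.3, 24.0 and 23.6 CPM (log2 fold change 0.12, adjusted p = 0.262). Neither overlapped between the genotypes, but the gaps were narrow. mRpL2 had 20.6, 24.7 and 28.6 CPM in the mutant, against 17.1, 21.8 and 18.9 CPM in control, and its log2 fold change of 0.35 did not pass (adjusted p = 0.109, or 0.0227 with the replicate block). The same held for mRpL4 (both also passed without mutant replicate 1), with 11.6, 13.8 and 14.4 CPM in the mutant, against 10.2, 11.0 and 11.4 CPM in control (log2 fold change 0.29, adjusted p = 0.0826, or 0.0259 with the block). mRpL22, which also lines the tunnel, passed with a log2 fold change of 0.35 (adjusted p = 0.0279), a call lost in 5 of the 6 fits that left out a replicate, those without mutant replicate 2, mutant replicate 3 and each control replicate.

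Of the proteins of the stalk, where translation factors dock, mRpL11 and mRpL12 were higher in the mutant and mRpL10 did not pass. mRpL12, which recruits the factors, had 32.0, 31.8 and 31.3 CPM in the mutant, against 23.4, 24.6 and 24.5 CPM in control (log2 fold change 0.39, SE 0.0704, adjusted p = 0.00615). Its neighbour mRpL11, at the base of the stalk, had 11.5, 10.8 and 11.4 CPM in the mutant, against 8.27, 8.26 and 8.55 CPM in control (log2 fold change 0.43, SE 0.0761, adjusted p = 0.00597). In both genes the 3 mutant replicates were nearly level, unlike in the genes with the largest rises. mRpL10, which holds the stalk, had 17.1, 22.5 and 24.1 CPM in the mutant, against 15.7, 17.9 and 16.7 CPM in control, and mutant replicate 1 lay inside the control range (log2 fold change 0.34, adjusted p = 0.108, or 0.0272 with the block). mRpL1, of the stalk at the tRNA exit site, had 13.2, 13.2 and 12.6 CPM in the mutant, against 8.73, 8.75 and 9.65 CPM in control (log2 fold change 0.52, adjusted p = 0.00352).

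Around the tunnel exit, mRpL45, whose human counterpart contacts the inner membrane, had 14.6, 15.4 and 16.5 CPM in the mutant, against 11.2, 12.9 and 10.8 CPM in control (log2 fold change 0.41, adjusted p = 0.0207). This call was lost without mutant replicate 2, mutant replicate 3, control replicate 1 or control replicate 3. mRpL47, the counterpart of bacterial L29, had 14.1, 16.3 and 16.6 CPM in the mutant, against 12.1, 13.9 and 13.4 CPM in control (log2 fold change 0.26, adjusted p = 0.0934, or 0.031 with the block). mRpL23 had 11.1, 13.8 and 14.5 CPM in the mutant, against 8.79, 10.1 and 11.1 CPM in control (log2 fold change 0.40, adjusted p = 0.0622, or 0.00599 with the block). Its neighbour mRpL24 went the other way, with 42.3, 49.0 and 46.7 CPM in the mutant, against 47.4, 54.7 and 52.6 CPM in control. This was the lowest log2 fold change of the family (-0.16, SE 0.094, adjusted p = 0.228). The only other value below 0 was that of mRpL35, with 12.4, 13.1 and 11.6 CPM in the mutant, against 12.5, 13 and 13.9 CPM in control (log2 fold change -0.08, adjusted p = 0.5). mRpL28 and mRpL51 were close to 0 as well, at 0.03 and 0.06 (-0.05 and -0.04 with the gene length offset), and the samples of the 2 genotypes overlapped in all 4 of these genes. mRpL1, mRpL22, mRpL23, mRpL24, mRpL28, mRpL35 and mRpL51 were named after their values were seen.

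In the small subunit, mRpS5, at the channel where the mRNA enters, had 29.1, 34.4 and 37.5 CPM in the mutant, against 19.1, 21.5 and 22.7 CPM in control (log2 fold change 0.67, adjusted p = 0.00572). The proteins mRpS7 and mRpS9 belong to the head of the subunit. mRpS7 had 47.1, 52.7 and 52.8 CPM in the mutant, against 40.1, 46.9 and 44.8 CPM in control (log2 fold change 0.21, adjusted p = 0.131, or 0.0364 with the block). mRpS9 had 23.8, 22.3 and 21.7 CPM in the mutant, against 23.1, 21.8 and 21.1 CPM in control, with a log2 fold change of 0.04 (SE 0.0806, adjusted p = 0.731) that turned to -0.01 when samples were scaled by total counts alone. mRpS29, the homolog of human DAP3, a GTP-binding protein without a bacterial counterpart, had 29.2, 29.4 and 27.2 CPM in the mutant, against 21.2, 19.5 and 21.9 CPM in control (log2 fold change 0.46, adjusted p = 0.00624).

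The files hold 3 genes for proteins related to bacterial S18, and all 3 were higher in the mutant. mRpS18B had 23.3, 25.5 and 26.2 CPM, against 14.8, 16.2 and 16.2 CPM in control (log2 fold change 0.67, adjusted p = 0.00153). mRpS18C had 14.7, 16.0 and 16.4 CPM in the mutant, against 10.8, 11.1 and 10.9 CPM in control (log2 fold change 0.52, adjusted p = 0.00325). mRpS18A had 35.4, 42.4 and 44.2 CPM in the mutant, against 26.7, 31.6 and 29.9 CPM in control (log2 fold change 0.47, adjusted p = 0.0199), a call lost without mutant replicate 2, mutant replicate 3, control replicate 1 or control replicate 3. In human mitochondria the counterparts of mRpS18A and mRpS30 sit in the large subunit despite their names. mRpS30 had 21.9, 19.5 and 16.8 CPM in the mutant, against 19.0, 16.6 and 16.9 CPM in control, where both genotypes overlapped (log2 fold change 0.15, adjusted p = 0.381).

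The other called genes of the large subunit were mRpL52 (log2 fold change 0.66), mRpL49 (0.63), mRpL9 (0.60), mRpL18 (0.60), mRpL43 (0.52), mRpL41 (0.49), mRpL21 (0.48), mRpL48 (0.46), mRpL13 (0.37), mRpL40 (0.37), mRpL15 (0.34), mRpL19 (0.30) and mRpL50 (0.29), and those of the small subunit were mRpS28 (0.64) and mRpS23 (0.55). In every one of them the lowest mutant replicate lay above the highest control replicate. For these and the called genes named before, this is no separate support, since the same samples gave the call. mRpL9 had 10.3, 11.4 and 11.9 CPM in the mutant, against 7.1, 7.52 and 7.52 CPM in control (SE 0.0895, adjusted p = 0.00279). The call of mRpL50 was lost in each fit without 1 of the replicates, and those of mRpL21, mRpL40 and mRpL41 in all of these but the fit without mutant replicate 1. Those of mRpL19 and mRpS28 were lost without mutant replicate 2 or any of the control replicates. That of mRpL49 was lost without mutant replicate 2, mutant replicate 3, control replicate 1 or control replicate 3. Those of mRpL13 and mRpL15 were lost without mutant replicate 2, control replicate 1 or control replicate 3, and that of mRpL52 without control replicate 1 or control replicate 3. mRpL9, mRpL18, mRpL43, mRpL48 and mRpS23 kept their call in all 6 fits. Of the genes that did not pass and are not named elsewhere, mRpL27, mRpL36, mRpL55, mRpS2, mRpS14, mRpS22, mRpS31 and mRpS35 had log2 fold changes of 0.16 to 0.23 and did not pass with the block either. Some had a wide spread between replicates, as in mRpL36, with 13.7, 19.5 and 23.4 CPM in the mutant, against 13.8, 18 and 18.4 CPM in control (SE 0.207, adjusted p = 0.556). mRpL34, the shortest gene, had 3.63, 5.95 and 6.33 CPM in the mutant, against 2.93, 4.27 and 4.01 CPM in control, with a log2 fold change of 0.50 (SE 0.24, adjusted p = 0.155, or 0.00799 with the block).

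Levels of different genes were compared per kb of exon, as the mean of the 6 samples. They ranged over 15.9-fold, between 6.38 and 101.2 CPM per kb. The highest was mRpS21, the counterpart of a bacterial small subunit protein, with 125.4 CPM per kb in the mutant and 77.0 CPM per kb in control. Its CPM were 42.5, 59.6 and 76.6 in the mutant replicates, against 29.6, 42.5 and 37.7 in control, and its rise, among the 10 largest by log2 fold change at 0.70, came with a wide spread (SE 0.229, adjusted p = 0.0541, or 0.00217 with the replicate block and 0.0114 in DESeq2). Next came mRpS17, with 98.5 CPM per kb in the mutant and 79.6 CPM per kb in control (log2 fold change 0.31, adjusted p = 0.0821, or 0.00864 with the block), and mRpS33, with 72.3 and 64.3 CPM per kb (log2 fold change 0.17, adjusted p = 0.289). At the low end were the mitochondria-specific mRpL37, with 7.24 CPM per kb in the mutant and 5.53 in control, mRpL38 of the central protuberance, with 7.67 and 5.52, and mRpL44, a protein with an RNase III fold, with 8.54 and 6.63. All 3 were higher in the mutant, with log2 fold changes of 0.39, 0.47 and 0.37 and adjusted p-values of 0.0169, 0.00554 and 0.0177. The call of mRpL37 was lost without mutant replicate 2, control replicate 2 or control replicate 3, and that of mRpL44 without mutant replicate 2, control replicate 1 or control replicate 2. Across the 72 genes, Spearman's rho of log2 fold change with level per kb was -0.05, given as a description, since the genes share the same 6 libraries.

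Both subunits were higher in the mutant. Of the large subunit genes tested, 26 of 46 were called higher with a median log2 fold change of 0.39, and of the small subunit genes 12 of 26 with a median of 0.43. Among all genes, 14.5% were called higher. Summed over genes, the large subunit stood at 864, 989 and 1036 CPM per kb in mutant replicates 1, 2 and 3, against 701, 791 and 787 CPM per kb in control. The small subunit stood at 853.7, 997.7 and 1086.7 CPM per kb in the mutant, against 662.3, 773.2 and 738.6 CPM per kb in control. These are 1.27-fold and 1.35-fold the control mean, and neither sum overlapped between the genotypes. The ratio of large to small subunit sums was 1.01, 0.991 and 0.953 in the mutant (0.985 ± 0.029, SD, n = 3) and 1.06, 1.02 and 1.07 in control (1.05 ± 0.0265, SD, n = 3). The mutant ratios were all below the control ratios, and within each pair of same-numbered replicates the mutant ratio was the lower one. The gap between the genotypes was small, with 1.01 in mutant replicate 1 next to 1.02 in control replicate 2. With 3 samples against 3, an exact permutation test cannot give a two-sided p below 0.1, and no test was made of these sums. The typical small subunit gene had the higher level, with a median over genes of 27.2 to 33.0 CPM per kb in the mutant and 18.4 to 20.8 CPM per kb in control, where the large subunit had medians of 15.4 to 17.5 CPM per kb in the mutant and 10.6 to 12 CPM per kb in control.

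**Figure D3:**
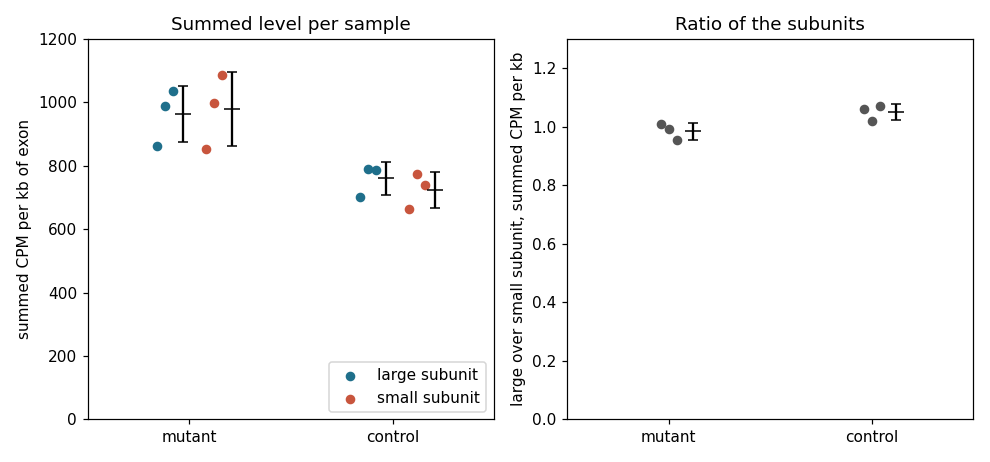
Summed CPM per kb of the large (blue) and small (red) subunit genes (left), and their ratio (right), in the mutant and in control. Points are replicates, in the order 1 to 3, and bars are the mean ± SD (n = 3). The large subunit sums are 864, 989 and 1036 in the mutant, against 701, 791 and 787 in control.

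Proteins with a bacterial counterpart and proteins specific to mitochondria were set side by side. Among all genes, 14.5% were called higher, and 22.2% with the replicate block. Of those with a bacterial counterpart 21 of 46 genes were called higher (median log2 fold change 0.37, and 35 genes with the replicate block), and of the mitochondria-specific genes 17 of 26 (median 0.41, and 20 with the block). In the large subunit 13 of 16 mitochondria-specific genes were called higher (median 0.44, and 15 with the block), against 13 of 30 with a bacterial counterpart (median 0.35, and 22 with the block). In the small subunit 4 of 10 mitochondria-specific genes were called higher (median 0.32, and 5 with the block), against 8 of 16 with a bacterial counterpart (median 0.49, and 13 with the block). Without mutant replicate 2, without control replicate 1 or without control replicate 3, 6 of the 16 mitochondria-specific and 8 of the 30 other large subunit genes were called. The class of mRpL55, which did not pass, is not certain. Counted with the mitochondria-specific genes, an alternative chosen after seeing the data, it makes the large subunit counts 13 of 17 and 13 of 29. No test was made of these differences.

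Since the modulo alleles lie on chromosome 3, the genes were also counted by chromosome. On chromosome 3, 22 of 38 genes were called higher, where 12.9% of all genes on that chromosome were. On the other chromosomes 16 of 34 were called higher, where 15.8% of all genes were. With the replicate block the counts were 25 on the other chromosomes and 30 on chromosome 3. The block called 22.2% of all genes higher, and its share by chromosome is not given here. The median log2 fold change was 0.39 in both groups. The share was lowest on 2L, with 4 of 12, where 14.0% of all genes on that arm were higher. The other arms had 7 of 11 on 2R (13.7% of all genes there) and 9 of 17 on 3L (13.4%). On 3R it was 13 of 21 (12.5%) and on X 5 of 11 (20.6%).

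The genes are short, with a median exon length of 783 bases (327 to 2078), against 1857 bases for the protein-coding genes tested. Across the 72 genes, Spearman's rho of log2 fold change with exon length was -0.31. The samples differed in how counts depended on gene length, and a fit that took out the length trend of each sample lowered the value of all 72. With this offset, 42 of the 72 genes were higher and 1, mRpL24, was lower (log2 fold change -0.26, adjusted p = 0.0154), where 16.2% of all genes were higher and 21.3% lower. The median log2 fold change was then 0.29 in the large and 0.33 in the small subunit. The calls of mRpL13, mRpL19 and mRpL50 were lost, and those of mRpL23, mRpL42, mRpL46, mRpS16, mRpS17, mRpS21 and mRpS25 were gained. With the offset and the replicate block together, 46 genes were higher and mRpL24 again lower (adjusted p = 0.0108), where 21.4% of all genes were higher and 25.6% lower.

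**Figure D4:**
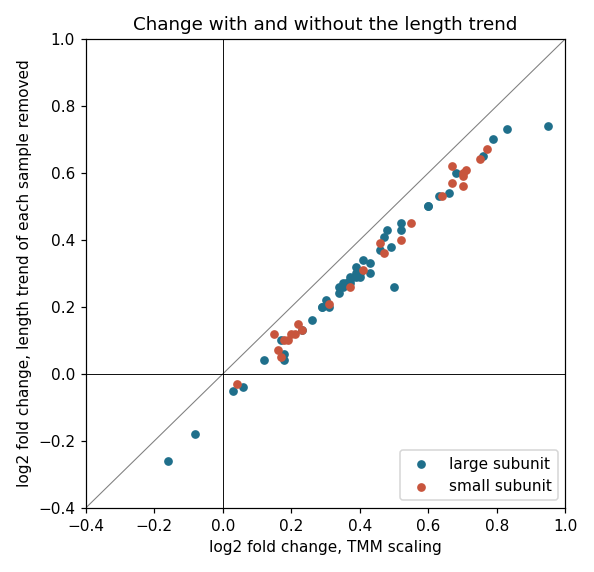
Log2 fold change of each of the 72 genes, mutant over control, with TMM scaling (horizontal axis) and after removal of the trend with gene length in each sample (vertical axis). Blue points are large subunit genes and red points small subunit genes. All points lie below the grey line of equal values, and mRpL24, the lowest, moves to -0.26 from -0.16.

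Most of these genes share a start region with another gene. For 51 of them, a protein-coding gene on the other strand starts within 500 bases. The share of all genes with such a neighbour was not counted. Of those neighbours 51 were tested, and 10 were higher and 2 lower, with a median log2 fold change of 0.07. Among all genes tested, 14.5% were higher and 17.8% lower, with a median of 0.02. CG15653, which starts 242 bases from mRpL54, was higher together with it (log2 fold change 0.69), and so was Ns1, which encodes a nucleolar GTPase, 57 bases from mRpS11 (0.28). Prosbeta2, a proteasome subunit gene 285 bases from mRpL39, had a log2 fold change of 0.11, and norpA, a phospholipase C gene 395 bases from mRpL33, had 0.25, and neither passed. At mRpL38, which was higher at 0.47, the neighbour CG11674 was lower at -1.56. These neighbours were named after their values were seen.

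Overlapping genes limit some of these counts. mRpL53 (FBgn0050481, chromosome 2R) was listed at 0 in all 6 samples and could not be tested. Its exons all lie within those of CG33155 on the same strand, and a read pair that meets 2 genes was not assigned under the counting settings, so this 0 is no measure of its RNA. CG33155 had 0.494, 0.506 and 0.662 CPM in the mutant, against 0.232, 0.215 and 0.233 CPM in control. mRpL13 shares 124 exon bases with CG10602 on the same strand and mRpS14 shares 30 with CG32533. Without these, 37 genes were called higher, an alternative chosen after seeing the data. Apart from these, 40 members overlap an exon on the opposite strand, up to 332 bases for mRpS24 with TBC1d7, where the stranded counting keeps both genes apart. Fractional counts from pairs with several positions occurred in 2 members, mRpL48 and mRpS5.

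3 further mitochondrial ribosomal proteins carry other symbols. tko, the fly counterpart of bacterial S12, had 8.19, 10.1 and 10.9 CPM in the mutant, against 7.66, 8.4 and 8.29 CPM in control, with overlap (log2 fold change 0.26, adjusted p = 0.149). bonsai, the counterpart of S15, had 24.9, 27.3 and 28.6 CPM in the mutant, against 22.6, 23.7 and 23.4 CPM in control (log2 fold change 0.21, adjusted p = 0.09, and just under the threshold with the replicate block). CRIF, whose human homolog is a large subunit protein near the tunnel exit, had 18.2, 15.8 and 16.0 CPM in the mutant, against 13.6, 13.1 and 13.7 CPM in control (log2 fold change 0.31, adjusted p = 0.0359). The call of CRIF held in 8 of the 19 alternatives, and was lost with the length offset and without mutant replicate 2, mutant replicate 3 or any of the control replicates.

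Of 9 mitochondrial translation factor genes tested, 4 were higher, where 14.5% of all genes were, with a median log2 fold change of 0.28. The count was 1 without mutant replicate 2 or without any of the control replicates, and 2 without mutant replicate 3. Here and below, between 919 and 2791 of all genes were higher in the fits without 1 replicate, against 2044 in the main analysis. mRRF2, a factor that acts in ribosome recycling, had 30.5, 31.9 and 33.9 CPM in the mutant, against 21.7, 23.9 and 19.7 CPM in control (log2 fold change 0.56, adjusted p = 0.00516). The initiation factor mIF2 (0.40), the elongation factor mEFG1 (0.45) and mEFTu1 (0.30) also passed. mEFTs, an abundant partner of EF-Tu, had 536.3, 576.9 and 615.3 CPM in the mutant, against 524.1, 626.3 and 583.1 CPM in control, with a log2 fold change that rounds to 0.00. waw was listed at 0 in all samples and was not tested. As with mRpL53, 100% of its exon bases lie in another gene on the same strand (bbx), so this 0 is no measure of its RNA.

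Of 15 mitochondrial aminoacyl-tRNA synthetase genes, which charge tRNAs with amino acids, 6 were higher and 1 lower (median log2 fold change 0.24). Among all genes, 14.5% were higher and 17.8% lower. Without control replicate 2 the count was 2, without mutant replicate 2 or control replicate 3 it was 3, and in those fits 0 were lower. MetRS-m had 17.7, 18.4 and 17.5 CPM in the mutant, against 10.1, 9.66 and 10 CPM in control (log2 fold change 0.85, adjusted p = 0.000304). TyrRS-m (0.57), PheRS-m (0.44), IleRS-m (0.43), AlaRS-m (0.38) and SerRS-m (0.31) were the others. ArgRS-m was lower, with 3.89, 3.6 and 4.01 CPM in the mutant, against 4.96, 4.63 and 5.01 CPM in control (log2 fold change -0.34, adjusted p = 0.0274), and it overlaps mRpS9 by 163 exon bases on the opposite strand.

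Of 10 tested genes that maintain and transcribe mitochondrial DNA or handle its RNA, 5 were higher (median log2 fold change 0.48), where 14.5% of all genes were. Under the replicate block 8 were higher, where 22.2% of all genes were. The count was 3 without mutant replicate 2, control replicate 1 or control replicate 2. mTerf3, of the mitochondrial termination factor family, had 4.33, 3.95 and 3.79 CPM in the mutant, against 2.06, 1.89 and 2.06 CPM in control (log2 fold change 1.00, adjusted p = 0.000669). mtDNA-helicase, which unwinds mitochondrial DNA, had 3.36, 3.33 and 3.2 CPM in the mutant, against 1.63, 1.93 and 1.61 CPM in control (log2 fold change 0.94, adjusted p = 0.00142). mtSSB (0.51), mTerf5 (0.45) and mTTF (0.35) also passed. TFAM, which packages mitochondrial DNA, had a log2 fold change of 0.16 (adjusted p = 0.277). mtTFB1, SLIRP1 and PolG2 were listed at 0 in all samples, and for each of them 100% of the exon bases are shared on the same strand with another gene (Ccdc56, anox and GatC), so these values are no measure of their RNA.

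The ribosomal RNAs of the mitochondrion itself did not pass. mt:srRNA had 1225, 3435 and 3513 CPM in the mutant, against 1543, 4922 and 3130 CPM in control (log2 fold change -0.23, SE 0.508, adjusted p = 0.761). mt:lrRNA was listed at 0.418, 0.607 and 7.74 CPM in the mutant, against 4.4, 2.44 and 1.34 CPM in control (log2 fold change 0.09, SE 1.05, adjusted p = 0.958), but was lower at -2.42 without mutant replicate 3. The libraries were depleted of ribosomal RNA, and the part of that step in these values was not tested. For the ribosome of the cytosol, 2 of 91 protein genes tested were higher, where 14.5% of all genes were, with a median log2 fold change of 0.17. With the replicate block 13 were higher and 5 lower, where 22.2% of all genes were higher and 23.4% lower. Without mutant replicate 1 the count was 37 higher.

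**Figure D5:**
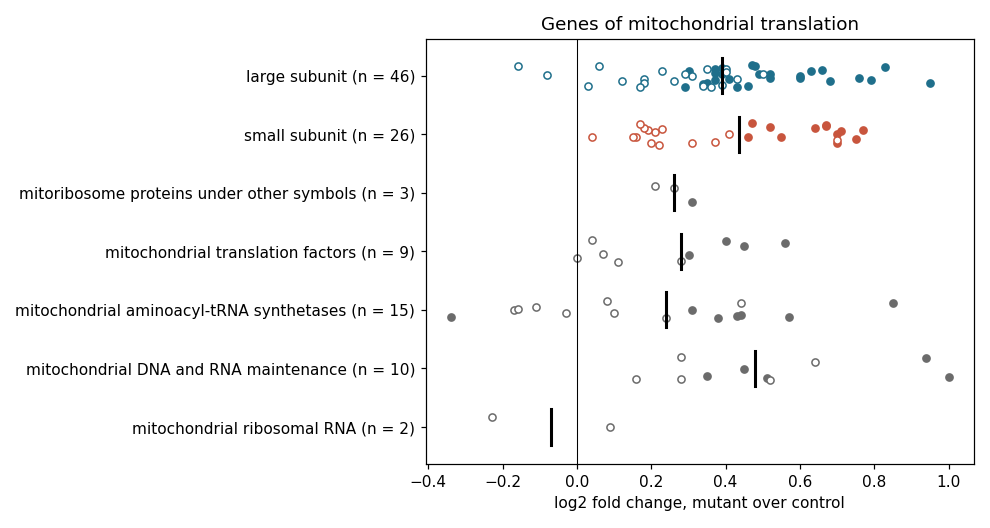
Log2 fold change, mutant over control, of the genes tested in each group, with filled points for genes that passed an adjusted p of 0.05 in either direction and black bars for medians. The medians are 0.39 and 0.43 for the large and small subunit, 0.28 for the translation factors, 0.24 for the synthetases and 0.48 for the maintenance genes, and ArgRS-m at -0.34 is the only filled point left of 0.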

How the data were processed

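The authors aligned read pairs with STAR 2.7.1a to BDGP6/dm6 and used featureCounts to count them on FlyBase genes by strand, each of several positions of a pair receiving a fraction. What they deposited are estimated counts for each gene and lane, without normalization. A table of the whole series holds the same values and was not used. Lanes were summed per replicate (3 each) and rounded, and genes were tested where 3 or more of the 6 samples had 10 counts or more (14059 genes), in R 4.3.3 with edgeR 4.0.16 (TMM, quasi-likelihood, no block). DESeq2 1.42.0, the authors' tool in an earlier version, was an alternative. The standard error is the log2 fold change divided by the square root of F. The text names the 10 members with the largest called rise, the 3 highest and 3 lowest levels, members chosen for their role, and related lists. Members and lists were chosen with earlier results of these data known. Exon lengths, overlaps and positions came from annotation BDGP6.54, which is later than the authors'. Same-numbered samples deviated together (r = 0.644, 0.656 and 0.246 over 11354 genes, against -0.685 to 0.11 otherwise), so the numbers were taken as pairs. The study describes the replicates as independent experiments. What samples with the same number share is not given in the sources used here. The deviations are from the mean of each genotype, so these values of r depend on each other. The tests were also run on simulated counts with known changes. Those counts were drawn without deviations shared by same-numbered samples, so error rates under such sharing were not checked. Sequences were not used here. At these depths a member had between 238 and 7203 counts per sample.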

Additional observations from a re-analysis of the deposited data

How the results depend on the processing

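In all, 19 alternative fits were run. Leaving out 1 replicate at a time gave 2611 to 5895 called genes in the whole table, 919 to 2791 of them higher, against 4547 and 2044 in the main analysis. In the same fits 23 to 56 mitochondrial ribosomal protein genes were called, and each was higher, of which 14 to 36 were in the large and 9 to 20 in the small subunit. The replicate block raised the number of all genes that were higher to 3122. With the gene length offset, alone or with the block, 1 member was lower, mRpL24, a large subunit gene. The log2 fold change of mRpS9 turned to -0.01 with total counts alone and to -0.03 with the length offset, alone or with the block. The offset also turned mRpL28 to -0.05 and mRpL51 to -0.04. The log2 fold change of mt:lrRNA turned to -0.89 with the block, -0.03 with the length offset, -0.94 with both, and ran between -2.42 and 0.61 over the fits without 1 replicate. That of mt:srRNA ran between -0.57 and 0.22 in those fits. The cause was not tested. Among the genes named in the text, the block changed no call other than those given beside the results. DESeq2, other scalings, filters, single lanes and unrounded counts left between 33 and 41 members higher and 0 lower. Of 1327 alternative values, 1176 kept their direction and side of the threshold or, where they have none (counts, medians and ratios), moved little.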
